A study of Homo sapiens with 24 samples.

Results

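The genes described here are 9 regulators of the passage from G1 into S phase: the CDK inhibitors CDKN1A and CDKN1B, the pocket proteins RB1, RBL1 and RBL2, the transcription factor E2F1, the G1 drivers CCND1 and CDK6, and the kinase WEE1. They were chosen by symbol, with earlier results of these data known. Every probe that the array's annotation gives to one of them was taken: 12 probes of 47323 on the array, for 9 of 20046 named genes. Of these 12 probes, 10 passed the filter on low values in both experiments and were detected on 12 of 12 arrays in each. The other two, ILMN_1787212 for CDKN1A and ILMN_1753013 for RBL1, were detected on no array and are not described further.

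The study used the established prostate cancer line DU145, of human origin, to ask which transcripts a microRNA binds and which respond to more of it. In the pulldown experiment the cells received a biotin-tagged RNA, and the RNA recovered with it was hybridized: the non-targeting controls NC1 and NC2, miR-638 and miR-17, with 3 arrays each. In the mimic experiment the cells received an untagged NC1, NC2 or miR-638 mimic, with 4 arrays each, and total RNA was hybridized. All 24 arrays come from the same cell line under one culture protocol, with no time after transfection and no dose in the labels used here, and no mimic arrays of miR-17 were analysed.

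Cells in G1 are held back while RB1, RBL1 and RBL2 bind E2F factors and keep their target genes off. Cyclin D1 (CCND1) with CDK6 or its relative CDK4 phosphorylates these pocket proteins and frees E2F, whereas CDKN1A and CDKN1B bind and block cyclin-CDK complexes. The miR-17 family, well known for promoting proliferation, has been described as targeting several of these transcripts, CDKN1A, RBL2, E2F1, CCND1 and WEE1 among them.

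The sequences of the transfected RNAs are shown because a microRNA finds its targets mainly through its seed, bases 2 to 8, set in capitals. The labels do not say which arm of miR-17 was used, so both are given, with 2 further family members for comparison. All are RefSeq sequences, written 5′ to 3′.
miR-17-5p: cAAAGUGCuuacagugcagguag
miR-17-3p: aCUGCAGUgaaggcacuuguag
miR-638: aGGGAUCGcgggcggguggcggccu
miR-20a-5p: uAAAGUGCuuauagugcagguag
miR-106b-5p: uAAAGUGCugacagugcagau
In GRCh38.p14 miR-17-5p lies at chr13:91350618-91350640 and miR-17-3p at chr13:91350655-91350676, both on the plus strand, and miR-638 lies at chr19:10718419-10718443 on the plus strand. The seed of miR-17-5p is shared by 8 mature microRNAs of the RefSeq table, miR-20a-5p and miR-106b-5p among them, whereas that of miR-638 occurs in 1. The RNAs also differ in composition, with 47.8% G and C in miR-17-5p, 50% in miR-17-3p and 80% in miR-638. Sites in the 9 transcripts were not searched, since no transcript sequence was used.

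Mean signal per array was 300.0 to 463 for mimic RNA and 428 to 629 for pulldown RNA, and the number of arrays limits the precision. Of 5 epithelial markers, 4 were detected on 12 of 12 arrays in both experiments, and 3 of 3 luminal prostate markers (KLK2, KLK3 and TMPRSS2) on none. Of 5 fibroblast markers, COL3A1, LUM and PDGFRA were detected on no array, DCN on 4 mimic and 2 pulldown arrays, and COL1A1 on 10 mimic and 12 pulldown arrays. Of 3 endothelial markers, CDH5 and VWF were detected on none and PECAM1 on 3 mimic arrays. Of 6 blood cell markers, CD14 and CD68 were detected on all arrays and LYZ on 12 mimic and 8 pulldown arrays. HBB was detected on 2 mimic and 2 pulldown arrays, PTPRC on 2 pulldown arrays only, and CD3E on none. The columns of the NC1 and NC2 pulldowns stand exchanged between the study's 2 deposited tables, the signal table and a value table, in all 6 cases. Control names below follow the signal table; where the controls are averaged the exchange has no effect. Nothing in the labels tells whether the replicates came from separate cultures, and the p-values cover only the spread among these arrays, which could be technical.

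Levels are log2 values after background correction and quantile normalization within an experiment. Differences are log2 differences from limma fits over all probes, with Benjamini-Hochberg adjustment over all probes tested, and a probe counts as changed at an adjusted p under 0.05. Statements that all arrays of a group lay above or below others describe the values and are not a test. The share of all probes that separate in this way is not given here. Because the samples are bulk RNA, fewer cells with a transcript and less of it per cell cannot be told apart, and in a pulldown neither can better recovery and a higher level in the cells.

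In the miR-17 pulldown the RNA of both CDK inhibitors, of CDK6 and of WEE1 was recovered at higher levels than with the controls, and that of RBL2 at a lower level. Of the 10 probes, 5 were higher, 1 was lower and 4 did not pass the test, with a median difference of 0.16 against 0.00 over all probes tested. Over all probes tested, 6.60% of 23742 probes were called higher and 4.73% lower. Since the genes were chosen with earlier results known, these shares are no test of the set. CDKN1B stood out by size, at just over 3-fold on both of its probes.

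CDKN1B restrains cyclin E-CDK2 and builds up in resting cells. At probe ILMN_2196347 its level was 10.30, 10.25 and 10.60 in the NC1 pulldown, 10.45, 10.43 and 10.22 with NC2, 10.28, 10.32 and 10.65 with miR-638, and 12.19, 12.23 and 11.98 with miR-17. At probe ILMN_1722811 it was 10.27, 10.18 and 10.27 with NC1, 10.27, 10.42 and 10.23 with NC2, 10.16, 10.34 and 10.31 with miR-638, and 12.03, 11.98 and 11.77 with miR-17. The 3 miR-17 arrays lay more than 1 log2 unit above each of the other 9 on either probe, and the other 3 groups overlapped. Against both controls the difference was 1.76 (SE 0.11, 3.39-fold, adjusted p = 2.17e-07) and 1.66 (SE 0.08, 3.15-fold, adjusted p = 3.04e-08), the 20th and 24th largest rise of the 23742 probes. It was nearly the same against each control, at 1.75 and 1.77 on the former probe and 1.69 and 1.62 on the latter.

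CDKN1A, the inhibitor that p53 induces after DNA damage, was higher by a smaller amount. Its level at ILMN_1784602 was 11.59, 11.69 and 11.76 with NC1, 11.60, 11.11 and 11.38 with NC2, 11.81, 11.78 and 11.89 with miR-638, and 12.34, 12.29 and 12.24 with miR-17. The miR-17 arrays were the 3 highest, the miR-638 arrays came next, and the controls overlapped each other. The difference of miR-17 from both controls was 0.77 (SE 0.09, 1.71-fold, adjusted p = 9.32e-05), made up of 0.61 against NC1 and 0.93 against NC2. In the authors' value table the same difference was 0.37 and did not pass the test (adjusted p = 0.118).

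**Figure D1:**
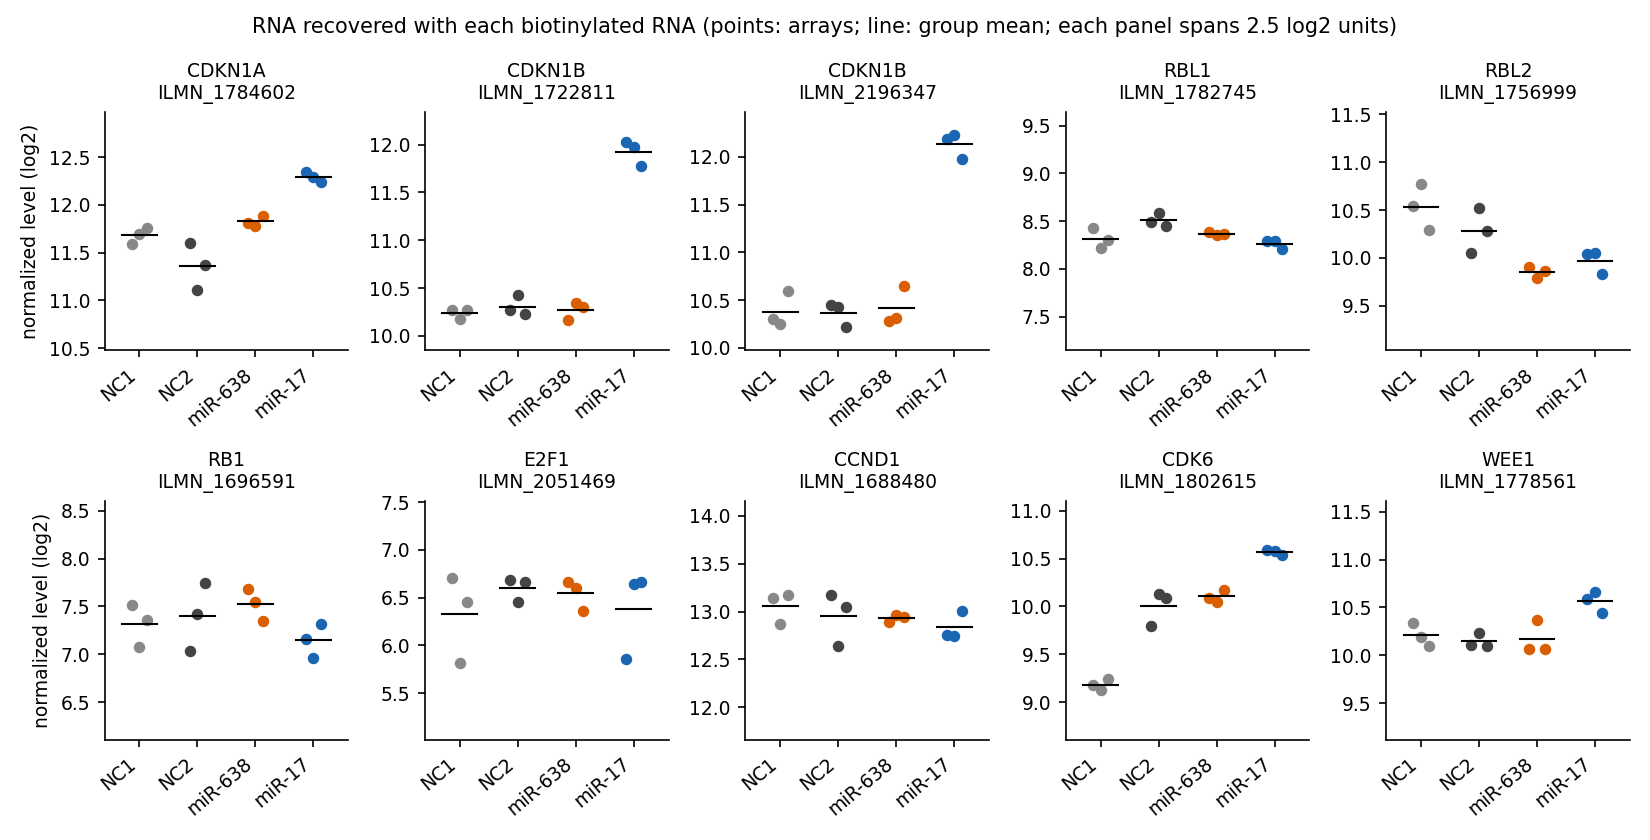
Log2 level in each of the 12 pulldown arrays (points) with the group mean (line), by control or microRNA on the horizontal axis, for the 10 probes past the filter; every panel spans the same number of log2 units. The 3 miR-17 arrays stand clear of all others at both CDKN1B probes, at CDKN1A, narrowly at WEE1, and at CDK6, where NC1 lies lowest. At RB1, E2F1, CCND1 and RBL1 they overlap the controls.

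None of the pocket proteins was higher. RBL2, which with E2F4 represses cell cycle genes in resting cells, was at 10.54, 10.78 and 10.29 with NC1, 10.06, 10.52 and 10.28 with NC2, 9.90, 9.79 and 9.86 with miR-638, and 10.04, 10.05 and 9.83 with miR-17. All arrays of both microRNAs lay below all 6 control arrays. The difference of miR-17 from both controls was -0.44 (SE 0.11, 1.36-fold lower, adjusted p = 0.0243). This call did not hold without miR-17 replicate 1, 2 or 3 (adjusted p = 0.0703, 0.0649 and 0.137) or against NC2 alone (-0.31, adjusted p = 0.182), nor with median scaling (adjusted p = 0.158) or in the authors' value table (adjusted p = 0.191).

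RBL1, the pocket protein that is itself made mainly in cycling cells, was at 8.43, 8.21 and 8.31 with NC1, 8.50, 8.59 and 8.45 with NC2, and 8.30, 8.29 and 8.21 with miR-17. NC1 and miR-17 overlapped and all NC2 arrays lay above both. The difference from both controls was -0.15 (95% confidence interval -0.34 to 0.05). RB1, the retinoblastoma tumour suppressor, ranged from 7.03 to 7.75 in the controls and from 6.96 to 7.31 with miR-17, a difference of -0.21 (-0.57 to 0.15). DU145 is known to lack a full-length RB1 protein, on which these RNA levels do not bear. E2F1, which drives S phase genes, varied more between arrays of a group than between groups, from 5.82 to 6.71 in the controls and from 5.85 to 6.66 with miR-17. Its difference was -0.08 with an interval of -0.54 to 0.39, and a change within that interval was not detectable here.

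Of the drivers, CDK6 was higher and CCND1 did not pass the test. CDK6 was at 9.18, 9.12 and 9.25 with NC1, 9.79, 10.13 and 10.09 with NC2, 10.09, 10.05 and 10.17 with miR-638, and 10.59, 10.58 and 10.54 with miR-17. The miR-17 arrays were the highest, the NC1 arrays the lowest, and those of NC2 and miR-638 overlapped in between. The difference of miR-17 from both controls was 0.98 (SE 0.08, 1.97-fold, adjusted p = 5.7e-06), but it was 1.39 against NC1 and 0.57 against NC2 (adjusted p = 0.00214).

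CCND1, the cyclin that growth factor signals induce, gave bright signals, at 13.14, 12.87 and 13.18 with NC1, 13.17, 12.64 and 13.05 with NC2, and 12.76, 12.75 and 13.00 with miR-17. The miR-17 arrays overlapped the controls, in each of which the array numbered 2 was the lowest. The difference was -0.17 (-0.41 to 0.06, adjusted p = 0.365), and without those 2 control arrays, an alternative chosen after seeing the data, it was -0.30 (adjusted p = 0.00592). WEE1, the kinase that holds CDK1 and CDK2 inactive, was at 10.34, 10.19 and 10.10 with NC1, 10.11, 10.23 and 10.09 with NC2, and 10.59, 10.67 and 10.44 with miR-17. All miR-17 arrays lay above all controls. The difference was 0.39 (SE 0.09, 1.31-fold, adjusted p = 0.014), and it did not pass the test without miR-17 replicate 1 or 2 (adjusted p = 0.0706 and 0.0895), with median scaling (adjusted p = 0.192) or in the authors' value table (0.70, adjusted p = 0.287).

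In the miR-638 pulldown 1 of the 10 probes was higher than with both controls, CDK6, 1 was lower, RBL2, and 8 did not pass the test. Over all probes tested, 4.97% of probes were called higher and 3.09% lower. CDK6 differed by 0.51 (SE 0.08, 1.43-fold, adjusted p = 0.00195), but this was 0.92 against NC1 and 0.10 against NC2 (interval -0.10 to 0.31, adjusted p = 0.599). RBL2 differed by -0.56 (SE 0.11, 1.47-fold lower, adjusted p = 0.00884), with all 3 arrays below all 6 controls. That call did not hold without miR-638 replicate 2 (adjusted p = 0.0609) or against NC2 alone (-0.44, adjusted p = 0.0725). With median scaling neither CDK6 nor RBL2 passed the test (adjusted p = 0.195 and 0.056), and neither did in the authors' value table (adjusted p = 0.148 and 0.185).

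For CDKN1B neither probe passed the test with miR-638, and the differences were -0.00 (interval -0.17 to 0.17) and 0.04 (-0.19 to 0.27), so that a rise of the size seen with miR-17 lies outside both intervals. CDKN1A was at 0.31 (0.11 to 0.50, adjusted p = 0.0538), with all 3 miR-638 arrays above all controls. It passed the test without NC1 replicate 2 (adjusted p = 0.0437), without NC2 replicate 1 (adjusted p = 0.00981) and against NC2 alone (0.47, adjusted p = 0.0185), and not against NC1 alone (0.15, adjusted p = 0.428). The levels of the 6 blood cell markers on the array, summed, were also higher in the miR-638 pulldown, at 2934 to 3261 against 1682 to 2912 in the controls, with CD3E detected on no array, as were those of the 5 epithelial markers, at 10786 to 11055 against 8696 to 10279. Their part in the differences was not tested.

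**Figure D2:**
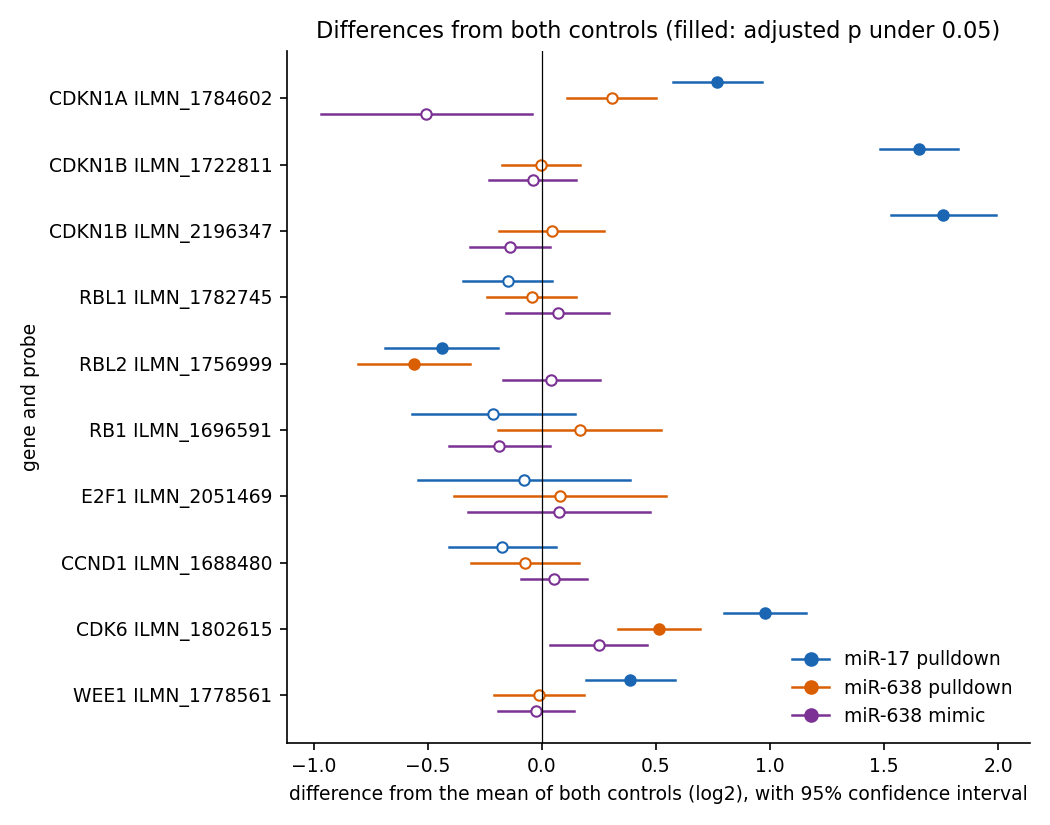
Log2 difference from the mean of both controls with its 95% confidence interval for each probe (rows), in the miR-17 pulldown, the miR-638 pulldown and the miR-638 mimic arrays; filled points have an adjusted p under 0.05. Both CDKN1B probes lie near 1.7 for miR-17 and near 0 for miR-638, and RBL2 is below 0 in both pulldowns.

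The microRNA pulldowns were also compared directly. This difference is taken between those 6 arrays, with the spread estimated from all 12 pulldown arrays, while the 2 comparisons above share the same 6 control arrays. With miR-17, 5 probes were higher than with miR-638 and 5 did not pass the limma test, none of these at an unadjusted p under 0.05, against 3.79% and 2.60% called higher and lower over the whole table. CDKN1B was higher by 1.66 and 1.72 (SE 0.09 and 0.12, 3.15-fold and 3.29-fold, adjusted p = 1.54e-07 and 1.98e-06). CDK6 and CDKN1A were each higher by 0.46 (1.38-fold, adjusted p = 0.00958 and 0.0163) and WEE1 by 0.40 (adjusted p = 0.0368). The 3 miR-17 arrays lay above the 3 miR-638 arrays in each case, without a share of all probes to set beside it.

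The smaller differences lost their call in several settings. CDK6 did not pass the test without miR-638 replicate 2 (adjusted p = 0.0535), CDKN1A did not without replicate 1 or 2 of either microRNA (adjusted p = 0.062 to 0.0773), and WEE1 did not without any miR-17 replicate or without miR-638 replicate 1 or 3 (adjusted p = 0.0503 to 0.161). With median scaling CDK6 and WEE1 did not pass it (adjusted p = 0.177 and 0.172), and in the authors' value table none of the 3 did (adjusted p = 0.547 to 0.762). Without a variance trend CDKN1A and WEE1 did not pass it (adjusted p = 0.0541 and 0.0811), nor did WEE1 with no filter (adjusted p = 0.0653). RBL2, lower than the controls with both microRNAs, differed between them by 0.12 (-0.16 to 0.41). RB1 had all 3 miR-17 arrays below the miR-638 arrays, 7.16, 6.96 and 7.31 against 7.69, 7.54 and 7.35, a difference of -0.38 (-0.79 to 0.03, adjusted p = 0.324).

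The 2 control pulldowns differed from each other at 1 of the 10 probes, CDK6, which was higher with NC2 by 0.82 (SE 0.10, 1.76-fold, adjusted p = 2.61e-04). In this comparison 2.41% of probes were called higher and 0.910% lower. From lowest to highest CDK6 thus ran NC1, then NC2 and miR-638, which did not differ beyond their spread, then miR-17. CDKN1A ran NC2, NC1, miR-638 and miR-17, of which only the last step passed the test, and the difference between the controls, -0.32 (adjusted p = 0.127), passed it without NC2 replicate 1 (-0.44, adjusted p = 0.0193). In the authors' value table, whose control columns are exchanged, NC2 minus NC1 was -0.96 for CDK6 and did not pass the test (adjusted p = 0.242).

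**Figure D3:**
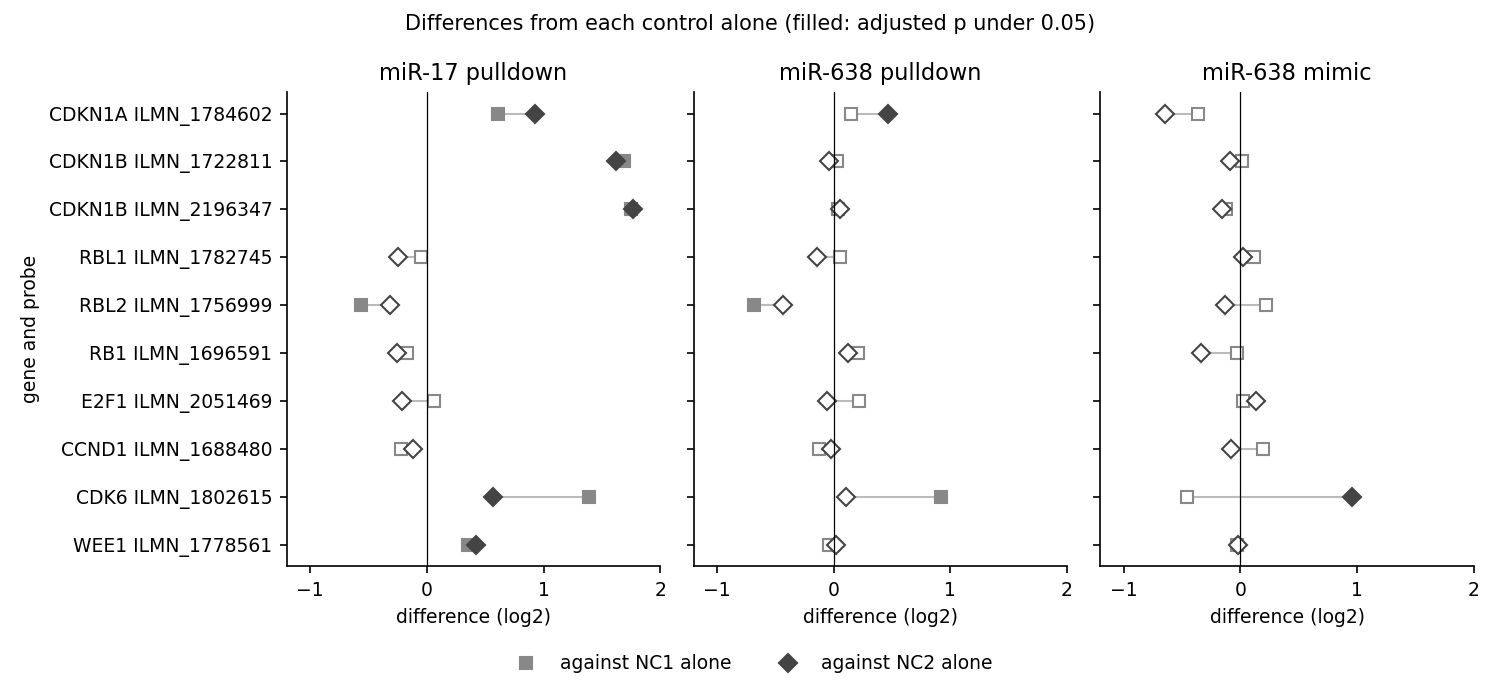
Log2 difference from NC1 alone (squares) and NC2 alone (diamonds) for each probe (rows) in the miR-17 pulldown, the miR-638 pulldown and the miR-638 mimic arrays; filled symbols have an adjusted p under 0.05. For CDKN1B the 2 controls give almost the same value, whereas for CDK6 they are furthest apart, at 1.39 and 0.57 with miR-17 and -0.46 and 0.96 with the miR-638 mimic.

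The surrounding network was described with a list of 40 other genes of G1 and S phase entry, 39 of them on the array and 38 tested, each by its brightest probe. In the miR-17 pulldown 5 were higher, 3 lower and 30 not called, with a median of -0.03 against 0.00 over all probes. The share called over all probes was 6.60% higher and 4.73% lower. E2F5, a repressive E2F that pairs with pocket proteins, was higher by 0.92 (SE 0.09, adjusted p = 1.34e-05). CCNB1, the mitotic cyclin, was higher by 0.70 (SE 0.08, adjusted p = 5.81e-05), SKP1, a subunit of the SCF ubiquitin ligase, by 0.53 (adjusted p = 0.00186), and CDC25C, the phosphatase that opposes WEE1, by 0.67 (adjusted p = 0.00356). The 3 called lower were LIN52 at -0.86 (adjusted p = 0.00688), CDK2 at -0.41 (adjusted p = 0.0172) and CDKN2D at -0.48 (adjusted p = 0.0244). PKMYT1, a kinase related to WEE1 and singled out after its value was seen, was at 1.15 with an SE of 0.38 and was not called. Against each control alone E2F5, CCNB1, SKP1 and CDC25C all passed the test (adjusted p = 1.68e-05 to 0.0305). LIN52, CDK2 and CDKN2D are given against both controls only. For these genes the NC2 pulldown was at -0.35, -0.25 and -0.27 against NC1, none of them called.

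**Figure D4:**
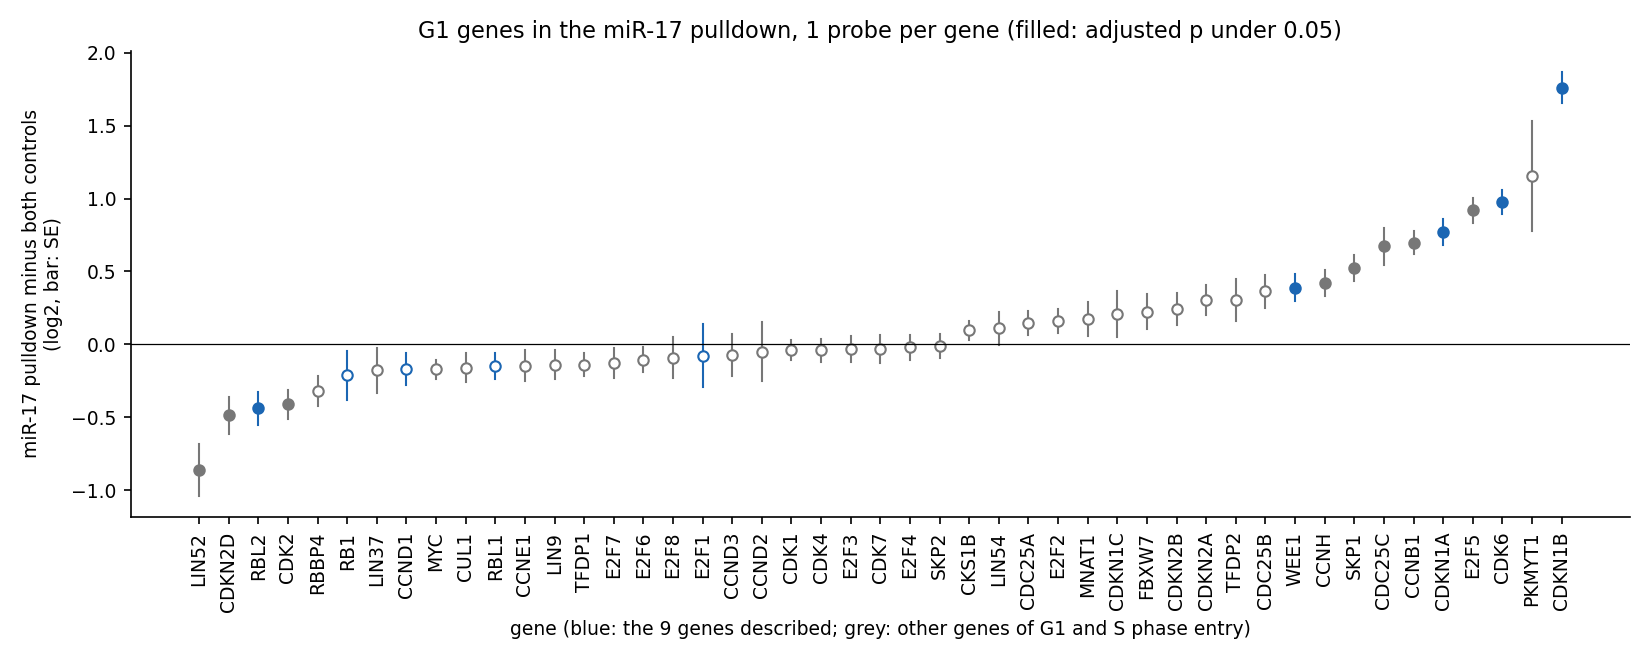
Log2 difference of the miR-17 pulldown from both controls (points, bars are SE) for the 9 genes described (blue) and 38 other genes of G1 and S phase entry (grey), 1 probe per gene, in order of size; filled points have an adjusted p under 0.05. CDKN1B is highest at 1.76, most genes lie close to 0, and PKMYT1 has the widest error.

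With miR-638 the network list had 2 higher, 4 lower and 32 not called in the pulldown, with a median of -0.03. The share called over all probes was 4.97% higher and 3.09% lower. LIN37, a subunit of the MuvB complex that works with RBL2, was higher by 0.90 (adjusted p = 0.00242), and the D-type cyclin CCND3 by 0.63 (adjusted p = 0.0177). CDK2, the partner of cyclin E, was lower by 0.48 on the log2 scale (adjusted p = 0.00916), and SKP1 by 0.37 (adjusted p = 0.0224). LIN37 and CCND3 passed the test against each control alone, whereas CDK2 did not against NC2 (-0.36, adjusted p = 0.0875) nor SKP1 against NC1 (-0.27, adjusted p = 0.12). Between the microRNAs, 8 were higher with miR-17, 4 lower and 26 not called, against 3.79% and 2.60% of all probes higher and lower. E2F5 differed by 1.12 (adjusted p = 1.1e-05), SKP1 by 0.90 (adjusted p = 9.52e-05), CCNB1 by 0.73 (adjusted p = 1.56e-04) and LIN37 by -1.08 (adjusted p = 0.00158). In NC2 against NC1, 2 of 38 were lower and 36 not called, E2F2 at -0.45 and the CDK7 partner MNAT1 at -0.58. Of all probes 2.41% were called higher there and 0.910% lower.

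Genes that E2F factors switch on for DNA synthesis were taken from a list of 25, 24 on the array and 23 tested. In the miR-17 pulldown 1 was higher, 2 lower and 20 not called, with a median of -0.07. The share called over all probes was 6.60% higher and 4.73% lower. TK1, thymidine kinase, was at 0.29 (adjusted p = 0.0134), the ribonucleotide reductase subunit RRM2 at -0.36 (adjusted p = 0.0424) and the helicase subunit MCM3 at -0.26 (adjusted p = 0.0201). RRM2 was at -0.71 against NC1 (adjusted p = 0.00223) and -0.01 against NC2 (adjusted p = 0.972), TK1 did not pass the test against NC1 alone (adjusted p = 0.0542) and MCM3 did not against NC2 alone (adjusted p = 0.0641). In the miR-638 pulldown 2 were higher, 2 lower and 19 not called, against 4.97% and 3.09% of all probes higher and lower. Among those called were TK1 at 0.77 (adjusted p = 1.39e-05), MCM6 at -0.35 (adjusted p = 0.0134) and MCM3 at -0.28 (adjusted p = 0.0184). Of these 3, MCM3 did not pass the test against NC2 alone (adjusted p = 0.0535). Between the microRNAs 3 were higher with miR-17 and 1 lower, against 3.79% and 2.60% of all probes. Among those called were TK1 at -0.48 (adjusted p = 0.00191), cyclin A2 (CCNA2) at 0.64 (adjusted p = 0.00909) and CDC25A at 0.38 (adjusted p = 0.0259). NC2 against NC1 had 1 lower, RRM2 at -0.70, against 0.910% of all probes called lower. The genes CCNE1, CCNE2 and CDC25A are on both lists.

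The genes whose levels ran most like those described, by Pearson's r over the same 12 pulldown arrays, are given without a test, since all share arrays and normalization. For CDKN1B they were MSANTD4 at 0.991 and VPS26A at 0.984, and for CDKN1A they were ITPA at 0.973 and TUBG1 at 0.954. For CDK6 they were ALDH9A1 at 0.968 and CAV1 at 0.967, and for RBL2 FAM111A at 0.959 and ZNF512 at 0.958. For WEE1 they were DPH5 and HADHB, for CCND1 they were E2F6 and MICALCL, for RBL1 ARMCX6 and DSC3, for RB1 BCCIP and DYNLRB1, and for E2F1 RAB5A and NUDCD2, with r from 0.892 to 0.934 over these.

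In total RNA, the miR-638 mimic left 10 of 10 probes without a call against both control mimics by limma, 2 of them at an unadjusted p under 0.05, CDKN1A and CDK6. Over all probes tested, 1.36% of 22469 probes were called higher and 0.939% lower. Replicates with the same number deviated together in this experiment, and with the replicate number as a block 7.75% were called higher and 6.85% lower. In that fit CDKN1A was lower, at -0.51 (SE 0.05, 1.42-fold lower, adjusted p = 5.14e-07 with the block and 0.32 without), and CDK6 higher, at 0.25 (SE 0.08, 1.19-fold, adjusted p = 0.0495 with the block and 0.269 without).

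CDKN1A was at 11.08, 11.14, 11.73 and 11.72 after the NC1 mimic, 11.30, 11.41, 12.01 and 12.07 after NC2, and 10.64, 10.66, 11.48 and 11.43 after miR-638. In every group replicates 3 and 4 were higher than 1 and 2, by 0.61 after NC1, by 0.68 after NC2 and by 0.81 after miR-638. Within replicates 1 and 2 the miR-638 arrays lay below all controls, at a difference of -0.59 (SE 0.07, adjusted p = 1.03e-05), and within replicates 3 and 4 likewise, at -0.43 (SE 0.07, adjusted p = 6.46e-04). With the block CDKN1A was lower than each control mimic, at -0.37 against NC1 (adjusted p = 2.01e-04) and -0.64 against NC2 (adjusted p = 5.95e-08), while without it neither difference passed the test (adjusted p = 0.712 and 0.173). RB1 was lower than NC2 with the block, at -0.34 (adjusted p = 0.011), and did not pass the test without it (adjusted p = 0.129), and it was at -0.50 within replicates 1 and 2 (adjusted p = 0.00823) and -0.18 within 3 and 4 (adjusted p = 0.393). The labels do not say what sets these pairs of replicates apart, and none of the 10 probes passed limma's test of a difference in the miR-638 effect between them, 1 of them, CCND1, being at an unadjusted p under 0.05.

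**Figure D5:**
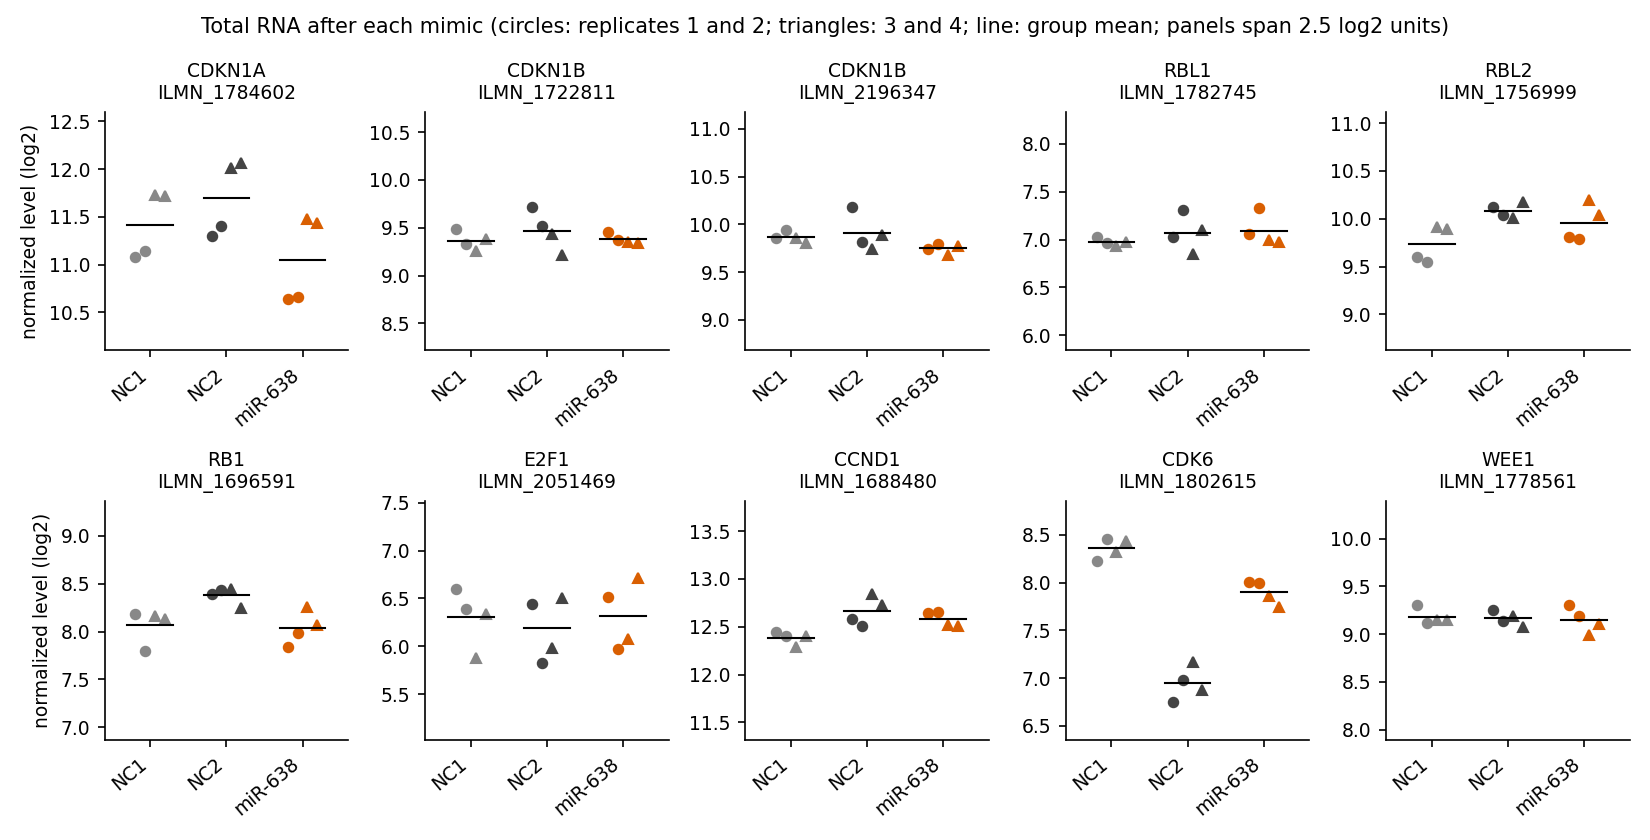
Log2 level in each of the 12 mimic arrays (circles for replicates 1 and 2, triangles for 3 and 4) with the group mean (line), by mimic on the horizontal axis, for the 10 probes past the filter; every panel spans the same number of log2 units. CDKN1A splits by replicate pair in every group, with miR-638 lowest within each pair, and CDK6 is lowest after NC2.

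CDK6 again depended on the control. It was at 8.23, 8.46, 8.32 and 8.44 after the NC1 mimic, 6.75, 6.99, 7.17 and 6.88 after NC2, and 8.0, 8.0, 7.86 and 7.75 after miR-638. The groups did not overlap, with miR-638 between the controls. The miR-638 mimic differed by -0.46 from NC1 (SE 0.11, adjusted p = 0.0626, and 0.00267 with the block) and by 0.96 from NC2 (SE 0.11, adjusted p = 3.73e-04). Against both controls the difference was 0.40 within replicates 1 and 2 (adjusted p = 0.0238) and 0.10 within replicates 3 and 4 (adjusted p = 0.734).

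For the remaining genes the interval of the miR-638 mimic's difference from both controls included 0 in the fit without the block. With the block, limma gave 4 of the 10 probes an unadjusted p under 0.05, CDKN1A and CDK6 among them, against 2 without it. Beyond CDKN1A and CDK6 none was called there, and 8 did not pass the test. The values that follow are from the fit without the block. CDKN1B was at -0.04 (-0.23 to 0.15) and -0.14 (-0.31 to 0.04), RBL1 at 0.07 (-0.15 to 0.29), RBL2 at 0.04 (-0.17 to 0.26) and RB1 at -0.19 (-0.41 to 0.04). The drivers and the others were as close, with CCND1 at 0.05 (-0.09 to 0.20), WEE1 at -0.02 (-0.19 to 0.14) and E2F1 at 0.08 (-0.32 to 0.48). The lists were described only in the fit without the block, which called 1.36% of all probes higher and 0.939% lower. With the block 7.75% and 6.85% of all probes were called, so the list counts depend on the fit. Of the network list 1 gene was higher, MNAT1 at 0.68 (adjusted p = 0.0248), and 37 were not called. Of the E2F target list 2 were higher, CCNA2 at 0.74 and UHRF1 at 0.37, and 21 were not called. MNAT1 and CCNA2 depended on the control: MNAT1 was at 1.59 against NC1 (adjusted p = 1.73e-04) and -0.24 against NC2 (adjusted p = 0.51), and CCNA2 at 0.05 against NC1 (adjusted p = 0.944) and 1.43 against NC2 (adjusted p = 2.15e-06). UHRF1 was higher than each, at 0.39 and 0.35 (adjusted p = 0.0297 and 0.028).

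Between the 2 control mimics, CDK6 was lower with NC2, at -1.41 (SE 0.11, 2.66-fold lower, adjusted p = 1.23e-05) and CCND1 higher, at 0.28 (SE 0.08, 1.21-fold, adjusted p = 0.0465), while 8 probes were not called. The background was 3.69% of probes higher and 3.94% lower, or 13.3% and 13.7% with the replicate block. CCND1 was at 12.45, 12.40, 12.29 and 12.40 after NC1 and 12.58, 12.51, 12.85 and 12.73 after NC2, without overlap. Its call did not hold without any 1 of the 4 NC1 replicates, of NC2 replicates 1, 3 and 4 or of the 4 miR-638 replicates (adjusted p = 0.0567 to 0.119). The CCND1 difference was 0.12 within replicates 1 and 2 (adjusted p = 0.334) and 0.44 within 3 and 4 (adjusted p = 7.71e-04). Limma's test of the change between these pairs was not passed (adjusted p = 0.283, unadjusted p = 0.00786).

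With the block, 4 probes were higher after NC2 and 1 lower. Besides CCND1 (adjusted p = 0.00496) the higher ones were CDKN1A at 0.28 (adjusted p = 0.00143), RBL2 at 0.35 (adjusted p = 0.00158) and RB1 at 0.31 (adjusted p = 0.0173). RBL2 and RB1 had every NC2 array above every NC1 array: RBL2 was at 9.60, 9.55, 9.92 and 9.89 after NC1 and 10.13, 10.04, 10.01 and 10.17 after NC2, and RB1 at 8.19, 7.79, 8.16 and 8.13 after NC1 and 8.39, 8.43, 8.44 and 8.25 after NC2. Without the block CDKN1A, RBL2 and RB1 were not called (adjusted p = 0.602, 0.0916 and 0.146). CDKN1A was at 0.24 within replicates 1 and 2 (adjusted p = 0.0464) and 0.31 within 3 and 4 (adjusted p = 0.0107). RBL2 was at 0.51 within replicates 1 and 2 (adjusted p = 3.25e-04) and 0.19 within 3 and 4 (adjusted p = 0.216), and RB1 at 0.42 (adjusted p = 0.0238) and 0.20 (adjusted p = 0.301). Neither passed limma's test of the change between these pairs (adjusted p = 0.385 and 0.765, unadjusted p = 0.0194 and 0.228). Both lists were again described without the block, where 3.69% of all probes were called higher and 3.94% lower. Of the network list, MNAT1 was higher at 1.82 (adjusted p = 2.65e-05) and 36 were not called. The F-box protein SKP2, which marks CDKN1B for destruction, was lower at -0.46 (adjusted p = 0.00375). Of the E2F targets 1 was higher and 4 lower, with CCNA2 at -1.38, RRM2 at 1.50 and the replication factor GINS2 at -0.57 the 3 of smallest p.

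The same contrasts were set against each other in the 2 kinds of RNA, with all 24 arrays normalized together. The fit, chosen after seeing the data, had no replicate block. For NC2 minus NC1, CDK6 was at -1.41 in mimic arrays and 0.84 in pulldown arrays, a difference of 2.25 (SE 0.15, adjusted p = 1.66e-09), and RBL2 at 0.33 and -0.26, a difference of -0.59 (SE 0.18, adjusted p = 0.0409). In this test 9.91% of 21330 probes were called. If the names of the control pulldowns are exchanged, as the columns of the 2 deposited tables match, the difference of CDK6 is 0.57 (adjusted p = 0.0492) and that of RBL2 is -0.07 (adjusted p = 0.917).

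For miR-638 minus both controls, which does not depend on those names, RBL2 was at 0.04 in mimic arrays and -0.58 in pulldown arrays, a difference of -0.62 (SE 0.16, adjusted p = 0.025), with 3.68% of probes called. CDKN1A was at -0.48 in mimic arrays and 0.32 in pulldown arrays, a difference of 0.80 that did not pass the test (SE 0.25, adjusted p = 0.0777). Without the block, that SE includes the shift of CDKN1A between replicate pairs, 0.61 to 0.81 in the mimic groups. The test therefore cannot decide whether the mimic and pulldown effects on CDKN1A differ. The difference was not tested with the block. For CDKN1B both differences were close to 0, with -0.04 and -0.13 in mimic arrays and -0.00 and 0.04 in pulldown arrays.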

How the data were processed

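The deposited signal table holds, per the file headers, an Illumina BeadChip signal intensity and a detection p-value for each probe and array, not normalized; the study's design text names another array maker. A deposited value table holds the authors' log2 values, floored at 4, with scale otherwise unstated, and was used as an alternative. Background correction from detection p-values (neqc, offset 16), quantile normalization and log2 were applied within each experiment (limma 3.58.1, R 4.3.3). Probes detected (p under 0.05) on at least 4 mimic or 3 pulldown arrays were tested: group means, empirical Bayes with a trend, Benjamini-Hochberg over all probes. The code was tested on simulated data. Figures used matplotlib.

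Members and lists were chosen with earlier results of these data known. All probes of the 9 symbols are named, with the 2 most similar genes per member. From each list up to 4 network genes or 3 E2F targets of smallest p are named. PKMYT1 and the network genes called lower in the miR-17 pulldown were added to these after their values were seen. Columns were matched between the 2 tables by rank correlation, highest for the other control in 6 pulldown columns (0.958 to 0.968, against 0.934 to 0.942 for the same name).

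Replicate numbers come from the labels. Same-numbered mimic arrays deviated together (r of residuals 0.605 to 0.704 across groups), so the block is given. Arrays of the other number in the pairs 1 and 2, or 3 and 4, did so as well (0.604 to 0.667), and those of the other pair did not (-0.685 to -0.593). Same-numbered NC1 and NC2 pulldown arrays had r of 0.127 to 0.587, and same-numbered arrays of the other pairs of pulldown groups -0.342 to 0.136. Pulldown arrays of different number ranged from -0.5355 to 0.4145. NC1 array 1 was closer to NC2 array 3 (0.4145) than to NC2 array 1 (0.127). The number thus did not pair the pulldown arrays consistently, and the block is only an alternative there. Settings varied were background, normalization, offset, filter, value table, block, groups fitted, array weights, variance trend, 1 probe per gene, each control alone and each replicate left out.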

Additional observations from a re-analysis of the deposited data

Results flagged for a closer look

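RB1 in NC1 mimic replicate 2 stood apart from the other 3 arrays of its group, at 7.79 against 8.13 for the next, a gap of 0.86 of the group's range. It was the 1 such case in 30 groups of 4, and about 1 in 20 is flagged by chance. NC2 minus NC1 differed between pulldown and mimic arrays for CDK6 by 2.25 and for RBL2 by -0.59, and miR-638 minus both controls differed for RBL2 by -0.62, each by a test of the difference. The first 2 of these values depend on which deposited table names the control pulldowns, as given in the results.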

How the results depend on the processing

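Of 1574 values of the 10 probes under alternatives, 1495 kept direction and side of the threshold, 56 lost a call, 22 gained one and 1 turned, CDK6 for NC2 against NC1 pulldown, at -0.96 in the authors' value table. Counted among those that kept theirs are 68 uncalled in both settings with another sign. The rise of both CDKN1B probes and of CDK6 with miR-17 passed the test in every alternative run, as did CDK6 for NC2 against NC1 mimic. The cause of the changes below was not tested. In the miR-17 pulldown 2690 probes were called, and 1190 with median scaling, 285 in the authors' value table, 4038 with array weights and 1319 to 3140 with 1 replicate left out; the 6 member calls became 4 with median scaling, 3 in the authors' table and 4 to 6 with 1 replicate left out. In the miR-638 pulldown 1912 were called, and 621, 136 and 3242 in those settings, 1057 with only the groups compared and 746 to 2301 with 1 replicate left out; the 2 member calls became 0 with median scaling, 0 in the authors' table, 1 against NC2 alone and 1 to 3 with 1 replicate left out. For miR-17 against miR-638, 1518 became 586, 187 and 3340, 3690 with only the groups compared, 3185 without the arrays numbered 2 of both controls and 824 to 2169 with 1 replicate left out; the 5 member calls became 3, 2, and 3 without a variance trend, and 3 to 5. For the control pulldowns 787 became 242 with median scaling, 6 in the authors' table, 136 with only the groups compared and 390 to 1084; the 1 member call became 0 in the authors' table and 1 to 2. For the miR-638 mimic 517 became 235 with median scaling, 307 with no filter, 3280 with the replicate block, 1141 against NC2 alone, 2831 within replicates 1 and 2, 961 within 3 and 4 and 199 to 424; the 0 member calls became 2 with the block, 1 against NC2 alone, 2 and 1 within the pairs, and 0 to 0 with 1 replicate left out. For the control mimics 1715 became 1134 with median scaling, 1075 with no filter, 6074 with the block, 4843 and 2837 within the pairs and 1006 to 1583; the 2 member calls became 1 with median scaling, with all 24 arrays together, with no filter, in the authors' table, with only the groups compared and with no trend, 5 with the block, 4 within replicates 1 and 2, and 1 to 2. In the pulldowns the replicate block gave 2676, 1992, 1371 and 675 calls in the order above and changed no call at the 10 probes. For the control pulldowns, a block fitted to their 6 arrays alone, chosen after seeing the data, gave 955 calls, with CDK6 the 1 member called. In the pulldowns E2F1, the dimmest of the 10 probes, had the widest interval.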
